A study of Homo sapiens with 6 samples.

Results

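The SR splicing factors were followed here as 10 genes of the SRSF family, SRSF1 to SRSF7 and SRSF9 to SRSF11. They were taken by gene symbol, and all 10 were present among the 32192 genes of the deposited count table and among the 31951 genes of the FPKM table. Poly(A) RNA had been sequenced in 6 libraries of A549, a long-established line of lung adenocarcinoma cells. In 3 libraries the cells carried a pIRES-hrGFP-1a plasmid with the APEX1 coding sequence, tagged with FLAG at its 3′ end (APEX1-OE), and in 3 libraries they carried the control plasmid (Ctrl). APEX1 is the apurinic-apyrimidinic endonuclease of base excision repair, and the study asked whether its overexpression alters splicing. The study's methods say in general that experiments were repeated, but no source used here gives the share of cells that took up a plasmid, or says of these libraries whether the 3 libraries of a group came from separate cultures. The p values therefore measure the spread between these libraries, which may be technical, and in RNA from whole cultures a change in all cells and a larger change in some cells cannot be told apart.

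SR proteins bind exonic enhancer sequences in pre-mRNA through an RNA recognition motif at their N-terminal side. Their C-terminal domain, rich in arginine-serine dipeptides (the RS domain), recruits the U1 snRNP and U2AF to the splice sites. The SRPK and CLK kinases phosphorylate this domain and so direct the proteins into the nucleus and into active spliceosomes. SR genes are also known to hold down their own expression by splicing in poison exons, which send the transcript to nonsense-mediated decay. Amounts of SR proteins set against those of hnRNP proteins shift the choice of splice sites in many genes, and SRSF1 is known as an oncoprotein in lung and breast cancer models.

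The RS domain is the feature that gave the family its name, and a stretch of its coding sequence is shown for the most and the least abundant members and for the member with the best known role in cancer. Each stretch is the in-frame window of 60 bases within 1 exon that holds the most arginine-serine or serine-arginine codon pairs, in the Ensembl canonical transcript of GENCODE 44 on GRCh38. Capitals mark the codons that belong to such a pair. In SRSF1 the window lay in exon 4 of 4 (chr17:58005484-58005543, minus strand) and in SRSF2 in exon 2 of 3 (chr17:76736389-76736448, minus strand). In SRSF9 it lay in exon 4 of 4 (chr12:120462085-120462144, minus strand), in SRSF10 in exon 6 of 6 (chr1:23971172-23971231, minus strand), and in SRSF11 in exon 8 of 12 (chr1:70244685-70244744, plus strand).
SRSF1: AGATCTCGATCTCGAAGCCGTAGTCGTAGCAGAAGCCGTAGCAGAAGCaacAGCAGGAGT
SRSF2: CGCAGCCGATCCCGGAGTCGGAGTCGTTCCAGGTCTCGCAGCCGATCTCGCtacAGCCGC
SRSF9: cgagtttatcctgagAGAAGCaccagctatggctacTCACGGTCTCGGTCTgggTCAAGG
SRSF10: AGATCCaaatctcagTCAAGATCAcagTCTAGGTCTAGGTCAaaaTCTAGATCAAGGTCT
SRSF11: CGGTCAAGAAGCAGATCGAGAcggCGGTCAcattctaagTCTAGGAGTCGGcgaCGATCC

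The windows of SRSF1 and SRSF2 held 17 such pairs each, those of SRSF10 and SRSF11 held 11 each, and that of SRSF9 held 6. Over the whole coding sequence SRSF4 had the most pairs (113 in 494 codons, the stop codon included) and SRSF9 the fewest (9 in 221 codons). The bases also differed between members. The GC content of the coding sequence was 66.8% in SRSF2 and 44% in SRSF10. Over all annotated exons, noncoding parts included, GC content ran from 37.0% in SRSF10, 37.2% in SRSF11 and 39.1% in SRSF1, over 40.0% in SRSF3, 40.8% in SRSF6 and 41.4% in SRSF4 and SRSF7, to 45.2% in SRSF5, 45.5% in SRSF9 and 46.5% in SRSF2.

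Each library held 28131955 to 41009197 counts. APEX1 stood at 689 ± 75.7 FPKM (fragments per kilobase, scaled to the mapped fragments; SD, n = 3) in APEX1-OE and 126 ± 2.5 FPKM (SD, n = 3) in Ctrl, so the libraries matched their labels. Of 8 markers of A549 cells, 7 were above 1 FPKM in every library (EPCAM, an epithelial adhesion protein, stayed between 0.18 and 0.52), and CDKN2A, which is deleted in this line, did not exceed 0.01 FPKM. Of 7 markers of leukocytes, endothelium, fibroblasts and red blood cells, 5 were in the FPKM table and none exceeded 0.73 FPKM. Their summed level lay between 0.63 and 0.78 FPKM in APEX1-OE and between 0.75 and 0.84 FPKM in Ctrl. The libraries also stood apart in a way the conditions do not give. The first principal component of log2 CPM (CPM, counts scaled to the library size after TMM normalization) held 72.6% of the variance, with APEX1-OE replicate 1 and Ctrl replicates 1 and 2 on one side (the first set) and APEX1-OE replicates 2 and 3 and Ctrl replicate 3 on the other (the second set). The same libraries fell on the same sides when the SR genes and all listed partner genes were left out. The values of the members are therefore given with and without this set as a term of the fit, and those of the fixed choice of partner genes likewise.

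SRSF9 had the highest level of the members, by a margin that depended on the gene lengths. FPKM is scaled by gene length, so these levels can be set beside each other, within the limits of the lengths that the authors used. SRSF9, a general splicing activator that closely resembles SRSF1, had 149, 144 and 161 FPKM in replicates 1, 2 and 3 of APEX1-OE, against 164, 164 and 149 FPKM in those of Ctrl. Its 6 libraries all lay above every library of the other members, and it made up between 41.2% and 53.9% of the summed FPKM of the 10 genes. With counts per kilobase of annotated exon in place of FPKM, this share was between 24.2% and 33.9%, and SRSF9 was again above SRSF2 in 6 of 6 libraries. Only 1.02% of the genes in the table had a higher mean FPKM than SRSF9, a rank that was not redone with annotated lengths.

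SRSF2 came next. SRSF2, the factor that is recurrently mutated in myelodysplastic syndromes and that stays in the nucleus, stood at 34.3, 41.0 and 44.7 FPKM in APEX1-OE and at 39.1, 39.4 and 37.98 FPKM in Ctrl, in the order of the replicate numbers. It was above SRSF1 in 6 of 6 libraries compared within the library, although the ranges of the 2 genes overlapped across libraries. SRSF1, the prototype of the family, stood at 17.4, 37.0 and 44.4 FPKM in APEX1-OE and at 24.8, 22.7 and 37.4 FPKM in Ctrl. SRSF3, the smallest SR protein and an adaptor for mRNA export, stood at 21.4, 31.6 and 38.1 FPKM in APEX1-OE and at 28.0, 26.1 and 31.5 FPKM in Ctrl. SRSF1 and SRSF3 could not be ordered, since SRSF1 was the higher of the pair in 3 of 6 libraries.

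The next 4 members lay close together. SRSF7, which carries a zinc knuckle and also serves mRNA export, stood at 13.2, 19.9 and 24.9 FPKM in APEX1-OE and at 16.9, 14.7 and 22.0 FPKM in Ctrl. SRSF5 stood at 12.6, 20.5 and 24.9 FPKM in APEX1-OE and at 15.7, 15 and 21.0 FPKM in Ctrl, and the order of SRSF5 and SRSF7 changed between libraries (SRSF7 was higher in 3 of 6). SRSF4 and SRSF6, long SR proteins with extended RS domains, had lower levels. SRSF4 stood at 11.3, 15.1 and 16.8 FPKM in APEX1-OE and at 13.9, 12.6 and 16.3 FPKM in Ctrl, and SRSF6 at 10.3, 15.4 and 18.1 FPKM in APEX1-OE and at 11.4, 12.4 and 15.4 FPKM in Ctrl. SRSF5 was above SRSF4 in 6 of 6 libraries, whereas SRSF4 was above SRSF6 in 4 of 6.

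The atypical members were the least abundant. SRSF10, which represses splicing when it is dephosphorylated after heat shock and in mitosis, stood at 3.21, 7.17 and 8.81 FPKM in APEX1-OE and at 3.65, 3.99 and 6.96 FPKM in Ctrl. SRSF11 stood at 3.40, 7.37 and 9.20 FPKM in APEX1-OE and at 3.42, 3.60 and 6.93 FPKM in Ctrl. These genes could not be ordered among themselves (SRSF11 was higher in 3 of 6 libraries), and both lay below all libraries of the other 8 members. In both genes the 3 libraries of the second set were high and those of the first set low, whatever the condition, and the plot of FPKM by library shows the same split in a weaker form for most members. SRSF8 and SRSF12, the remaining genes of the family, had means of 4.10 FPKM and 0.335 FPKM over the 6 libraries.

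**Figure D1:**
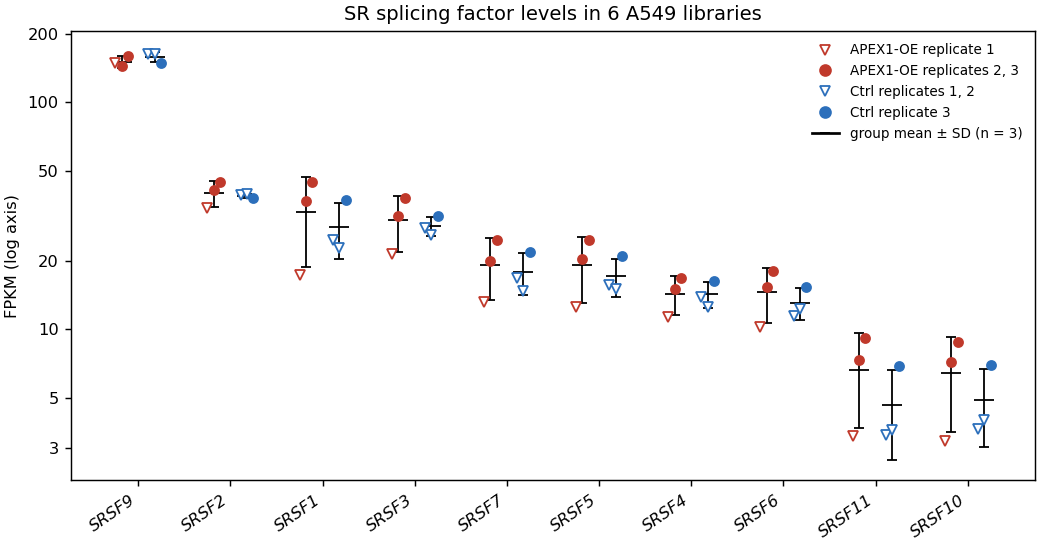
FPKM (log axis) of the 10 SR genes in each of the 6 libraries, ordered by their mean, with APEX1-OE in red and Ctrl in blue; open triangles are the first library set, filled circles the second, and black bars the group mean ± SD (n = 3). SRSF9 lies between 144 and 164 FPKM, above all other members, and SRSF10 and SRSF11 lie between 3.21 and 9.20 FPKM, below them.

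The lengths behind these FPKM values mattered for the order. The ratio of counts to FPKM gave 1 length per gene in all libraries, and relative to SRSF9 this length was 2.44 for SRSF2 and 5.08 for SRSF10. The exons of GENCODE 44 give 0.752 and 3.00 for the same genes. SRSF9, to which these lengths are scaled, differed as well. Taking all deposited counts as the mapped fragments, the ratio gave about 1474 bases for SRSF9, beside 3957 annotated. For SRSF2 it gave about 3586 bases beside 2976, and for SRSF10 about 7470 beside 11860. With counts divided by the annotated exon length, SRSF9 (58.1 CPM per kilobase) and SRSF2 (47.5 CPM per kilobase) again ranked highest and SRSF11 (3.64) and SRSF10 (3.48) again lowest, and the other 6 members changed places. The gap between SRSF9 and SRSF2 in particular was wide only in the FPKM values.

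No SR gene was called in APEX1-OE against Ctrl. In edgeR's quasi-likelihood test on the counts, with the condition as the only term, 0 of the 10 members had an adjusted p under 0.05, with Benjamini-Hochberg adjustment over the 16971 genes tested. Over all tested genes 0.00589% were called, which was APEX1 alone (log2 fold change 2.42, standard error 0.171, adjusted p = 0.00809 in this test). No member had an unadjusted p under 0.05, beside 0.695% of all tested genes, a share at which a count of 0 among 10 genes says little, and DESeq2, limma-voom and limma on the FPKM values called no member either. The CPM values of the groups overlapped in all 10 members, while they did not overlap in 3.39% of the tested genes. The median log2 fold change of the members was 0.11, beside 0.03 over all tested genes.

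The differences between the group means were small against the spread, but the intervals were wide. The log2 fold changes were largest for SRSF11 (0.48, standard error 0.363, 95% interval from -0.36 to 1.32) and SRSF10 (0.36, standard error 0.349, interval from -0.45 to 1.16). The interval of SRSF11 thus allowed anything from a fold of 0.781 to a fold of 2.5. SRSF1 was at 0.18 (standard error 0.303, interval from -0.52 to 0.88). The intervals were narrowest for SRSF2 (0.02, from -0.37 to 0.41), SRSF9 (-0.09, from -0.51 to 0.33), SRSF4 (-0.0082, from -0.45 to 0.43) and SRSF3 (0.06, from -0.40 to 0.51). SRSF5 at 0.13, SRSF6 at 0.13 and SRSF7 at 0.08 lay between these. The adjusted p was 1.0 for each of the 10 genes in this edgeR test. On the FPKM values the exact two-sided permutation test gave p values between 0.2 (SRSF9) and 1.0 (SRSF4), where 3 libraries against 3 allow no p under 0.1.

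With the library set as a term, a setting chosen with the data in view, the intervals became much shorter and there was again no call among the members. The log2 fold changes then ran from -0.11 for SRSF1 (standard error 0.114) to 0.16 for SRSF11 (standard error 0.114, unadjusted p = 0.175 and adjusted p = 0.592 in edgeR's quasi-likelihood test). None of the 10 members had an unadjusted p under 0.05 in this fit, while 11.6% of all tested genes did and 0.0236% had an adjusted p under 0.05. The value for SRSF10 fell from 0.36 to 0.03, and the median over the members moved from 0.11 to -0.02. SRSF2 was at 0.04, SRSF4 at -0.07, SRSF6 at 0.0089 and SRSF9 at -0.0034 in this fit. The signs of the smaller values changed with the scaling and the fit, so no direction is given for them. When GC content and gene length were also corrected for, beside the library set and again with the data in view, SRSF11 was at 0.19 (standard error 0.0752, unadjusted p = 0.0254, adjusted p = 0.338 in the same edgeR test). In that fit 12.4% of all tested genes had an unadjusted p under 0.05, a share at which 1 of 10 members says little.

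**Figure D2:**
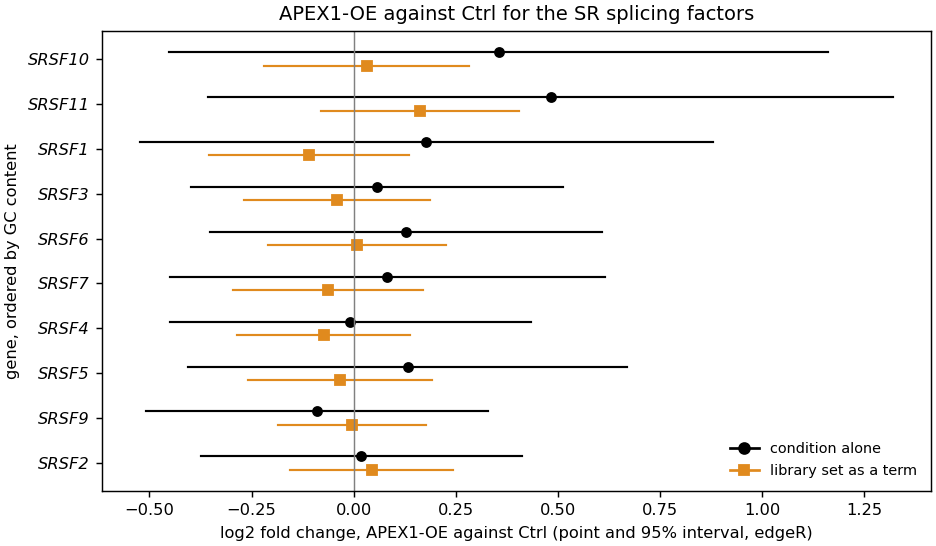
Log2 fold change of APEX1-OE against Ctrl for the 10 SR genes, ordered by GC content, as points with 95% intervals from edgeR; black circles are the fit with the condition alone and orange squares the fit with the library set as a term. Every interval spans 0 in both fits, and the interval of SRSF11 shortens from between -0.36 and 1.32 to between -0.08 and 0.41.

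Between libraries most SR genes varied together, along the library sets. In 8 of the 10 members the 3 libraries of the second set all lay above the 3 of the first set in CPM, which held for 35.5% of all tested genes. Most genes of like GC content were higher in the second set too, counted without asking that all 3 libraries lie apart. The share was 96.8% at a GC content of up to 38%, 94.7% from there to 42%, 84.1% to 46% and 61.3% to 50%. A higher level in the second set is thus no trait of the family, and the stricter count was not made by GC content. In SRSF9 the order was the opposite, with all libraries of the second set below those of the first, and SRSF2 overlapped. The separation was marginal in SRSF4, where the centred log2 CPM of APEX1-OE replicate 2 (0.0139) was next to that of Ctrl replicate 1 (0.0134). The sets were not defined by the SR genes, but they were seen in these data, and the values are given without a test. SRSF11 had the largest gap, a mean log2 CPM higher by 0.97 in the second set, followed by SRSF10 (0.89) and SRSF1 (0.70). The gap was 0.43 in SRSF5, 0.39 in SRSF7, 0.33 in SRSF6, 0.24 in SRSF3 and 0.17 in SRSF4, and it was -0.05 in SRSF2 and -0.26 in SRSF9. The members together took 0.0765% of all counts in APEX1-OE replicate 1, 0.0881% and 0.0876% in Ctrl replicates 1 and 2, 0.108% in Ctrl replicate 3, and 0.102% and 0.119% in APEX1-OE replicates 2 and 3.

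**Figure D3:**
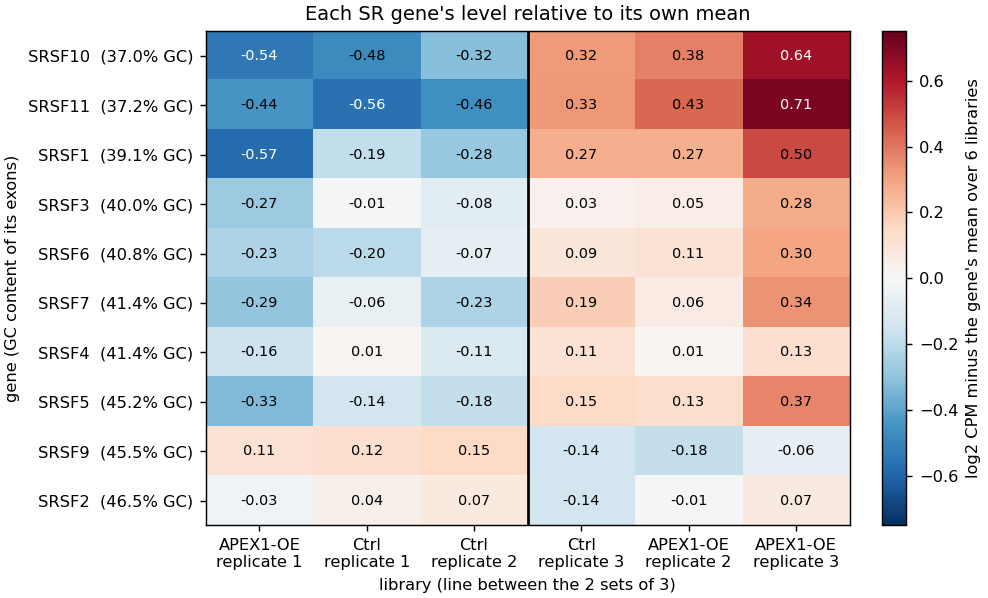
Log2 CPM of each SR gene minus its mean over the 6 libraries, with genes in rows from low to high GC content of their exons and libraries in columns, the first set left of the line and the second set right of it. SRSF10, SRSF11 and SRSF1 run from -0.57 to 0.71 across the libraries, whereas SRSF2 stays between -0.14 and 0.07.

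Among the members the size of the gap went with the base composition of the gene at the ends of the range, but not between them. The 3 members with the lowest GC content (SRSF10, SRSF11 and SRSF1) had the widest gaps, and SRSF9 and SRSF2, with the highest GC content, had negative ones. SRSF3, SRSF6, SRSF4 and SRSF7 had narrower gaps than SRSF5 although their GC content was lower. Through the transcriptome the gap fell as GC content rose. The median gap was 0.90 in the 1174 tested genes with a GC content of at most 38%, 0.78 in the 2696 genes above 38% and up to 42%, and -0.53 in the 5011 genes above 55%. Compared with the tested genes within 1 percentage point of their own GC content, 8 of the 10 members lay below the median gap and 4 of these, SRSF3, SRSF4, SRSF6 and SRSF9, below the lower quartile. For SRSF9 the quartiles of its 1312 neighbours were 0.04 and 0.67, beside its own -0.26. These GC contents are of annotated exons, and the exons behind the deposited values may differ. The ratio of counts to FPKM gave about 1474 bases for SRSF9 beside 3957 annotated, and about 2927 for SRSF4 beside 8806. The GC content of the counted exons is thus not known, nor is the place of these genes among neighbours chosen by it. The part of GC content in the differences between libraries was not tested for single genes.

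**Figure D4:**
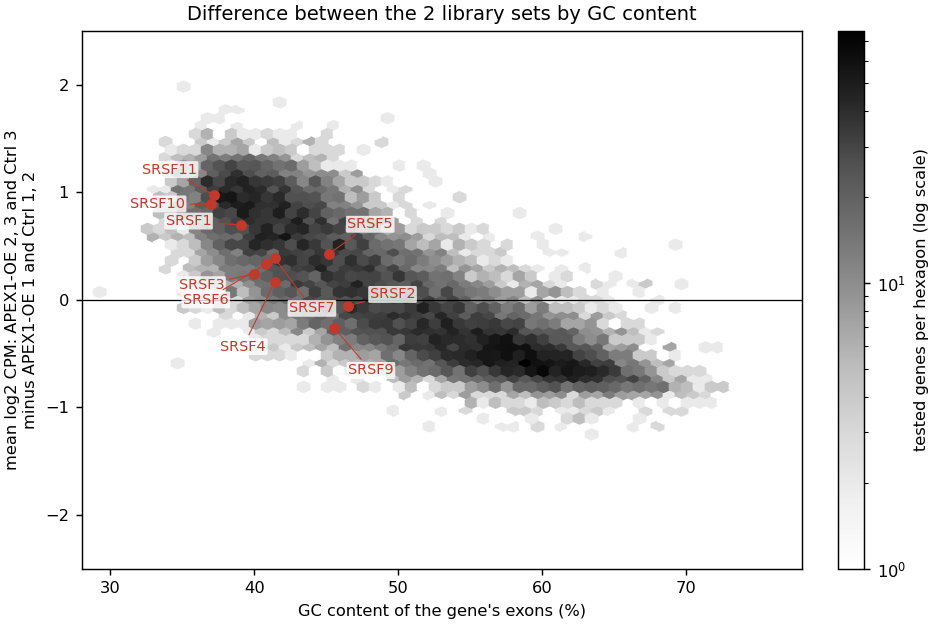
Gap between the library sets (mean log2 CPM of APEX1-OE replicates 2 and 3 and Ctrl replicate 3 minus that of APEX1-OE replicate 1 and Ctrl replicates 1 and 2) against the GC content of the exons in percent, for all tested genes (grey hexagons, darker for more genes) and the 10 SR genes (red points). The SR genes lie between 37.0% and 46.5% GC, with gaps from 0.97 (SRSF11) down to -0.26 (SRSF9).

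Within the library sets the contrast of APEX1-OE with Ctrl turned round for most members. In the first set, APEX1-OE replicate 1 was below the mean of Ctrl replicates 1 and 2 in 9 of the 10 members, with SRSF1 the lowest (log2 ratio of CPM -0.34), followed by SRSF3 (-0.22). The exception was SRSF11, at 0.07. In the second set, APEX1-OE replicates 2 and 3 had a mean above Ctrl replicate 3 in 9 of the 10 members, with SRSF11 the highest (0.25), followed by SRSF10 (0.19). The exception was SRSF4, at -0.04. Over all tested genes, 52.0% were lower in APEX1-OE in the first set and 63.7% were higher in the second set. The value was below Ctrl in the first set and above it in the second in 8 of the 10 members and in 30.2% of all tested genes. Each of these contrasts has a single library on one side and gives no test. The libraries of a set also differed along the first principal component. APEX1-OE replicate 1 was at -58.5 on it, farther out than Ctrl replicates 1 and 2 (-32.7 and -31.1). APEX1-OE replicates 2 and 3 were at 33.1 and 49.9, on either side of Ctrl replicate 3 (39.2). Whether the turn follows this component or the condition was not tested. SRSF11 was thus the only member above Ctrl in both sets.

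The kinases, phosphatases and transport factors of SR proteins were not called either. Of the 15 genes of this list, 14 passed the filter on low counts (SRPK3 did not), 0 were called by edgeR's test at an adjusted or an unadjusted p under 0.05, and the log2 fold changes lay between -0.06 and 0.57 with a median of 0.23. At shares of 0.00589% and 0.695% over all tested genes, a count of 0 says nothing particular about a list of this length, here or in the lists that follow. SRPK1, the main cytoplasmic SR kinase, stood at 27.3, 56.8 and 62.2 CPM in APEX1-OE and at 34.7, 33.2 and 55.9 CPM in Ctrl. It thus showed the split of the library sets and not that of the conditions (log2 fold change 0.24, standard error 0.354). SRPK2 was at 0.27. CLK1, a nuclear kinase that releases SR proteins from speckles, was at 0.40 (standard error 0.340), CLK2 at -0.06, CLK3 at -0.04 and CLK4 at 0.57 (standard error 0.401), the largest of the list. CLK1 and CLK4, with GC contents of 39.0% and 37.0%, had gaps between the library sets of 0.83 and 1.06. In CLK2 (55.6%) and CLK3 (51.6%) the gaps were -0.29 and -0.46. TNPO3, the importin of SR proteins, was at 0.12 (standard error 0.303). With the library set as a term the values were -0.10 for SRPK1, -0.07 for SRPK2, 0.13 for CLK1, 0.04 for CLK2, 0.12 for CLK3, 0.27 for CLK4 and -0.15 for TNPO3, so the sign changed in SRPK1, SRPK2, CLK2, CLK3 and TNPO3.

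The other SR-related and partner proteins gave the same picture. Of 33 genes 32 were in the count table, all 32 were tested, 0 were called at an adjusted or unadjusted p under 0.05 in edgeR's test, and the median log2 fold change was 0.12. TRA2A and TRA2B, SR-like activators, were at 0.27 (standard error 0.275) and 0.12 (standard error 0.261). U2AF2, the large subunit that binds the polypyrimidine tract, was at 0.07 and SNRNP70, the U1 protein that SR proteins contact, at 0.03. With the library set as a term TRA2A was at 0.06, TRA2B at -0.08, U2AF2 at 0.27, SNRNP70 at 0.21 and U2AF1 at 0.17. U2AF1 was the 1 gene of the 32 whose groups did not overlap in CPM, beside 3.39% of all tested genes, with 6.11, 6.24 and 5.84 CPM in APEX1-OE and 5.58, 5.07 and 5.50 CPM in Ctrl (log2 fold change 0.17, standard error 0.209, adjusted p = 1.0 in edgeR's test). In FPKM the groups of U2AF1 overlapped and those of CDK11B did not (8.86, 9.86 and 9.14 FPKM in APEX1-OE, 8.82, 8.82 and 8.67 FPKM in Ctrl), beside 2.17% of the genes with a mean of at least 1 FPKM. CDK11B is named after its values were seen. GRCh38 holds a near-identical copy of U2AF1, so its count of uniquely mapped reads is uncertain.

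The nonsense-mediated decay and exon junction genes, the route on which SR transcripts with poison exons end, were also without a call. All 15 were tested, 0 were called at an adjusted or unadjusted p under 0.05 in edgeR's test, and the median log2 fold change was 0.09. UPF1, the helicase of the pathway, was at 0.14 (standard error 0.230), and SMG1, the kinase that phosphorylates it, at 0.56 (standard error 0.516). SMG1 stood between 1.38 and 1.41 FPKM in the 3 libraries of the first set and between 4.19 and 4.95 FPKM in those of the second. With the library set as a term UPF1 was at 0.27 and SMG1 at 0.12. In that fit an unadjusted p under 0.05 was reached by 2 of the 14 kinase, phosphatase and transport genes (PPP1CA and NXF1), 5 of the 32 partner genes (SCAF1, SNRNP70, SNRPA, SREK1 and U2AF2) and 4 of the 15 decay genes (SMG5, SMG8, SMG9 and UPF1), beside 11.6% of all tested genes. These genes outside U2AF2, SNRNP70 and UPF1 are named after their values were seen. The lowest adjusted p among the 3 lists in that fit was 0.350, for SNRPA. Of the genes with an unadjusted p under 0.05 there, all but SREK1 (35.1%) and SMG8 (46.6%) had a GC content of at least 52.8%. With GC content and length corrected for beside the library set, PPP1CA and SCAF1 were at 0.14, NXF1 at 0.20 and SNRNP70 at 0.07. SNRPA was then at 0.24, SREK1 at 0.30, U2AF2 at 0.12, SMG5 at 0.27, SMG8 at -0.20, SMG9 at 0.325 and UPF1 at 0.14. Each value was smaller in size than with the library set alone. The cause was not tested.

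Some counts of SR genes may hold reads of other genes, since the library kit kept the strand but its use in counting is not given. SRSF9 shares 1725 bases of exon with GATC on the opposite strand (10663 counts over the 6 libraries) and 124 bases with NRAV on its own strand (4710 counts), and SRSF2 shares 823 bases with MFSD11 (5620 counts). SRSF1 shares 1890 bases with RP11-159D12.5 on the same strand (3905 counts) and 440 bases with RP11-159D12.6 on the opposite strand (1856 counts). The SRSF pseudogenes took few reads, with SRSF9P1 and SRSF10P1 at no more than 1 count in a library and RP11-60C6.5, the highest of the 4, at 2 to 12 counts. In GENCODE 44 the members have between 1 (SRSF5, SRSF6) and 6 (SRSF7) transcripts of the nonsense-mediated decay type. The deposited values sum over all transcripts of a gene, so the shares of coding and decay transcripts cannot be read from them.

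The genes outside the family whose profile over the 6 libraries was nearest to the mean profile of the members were CEACAM1, MAT2B, E2F5, UBE2D3 and TCHP. Their distances (Euclidean, centred log2 CPM) lay between 0.0478 for CEACAM1 and 0.0796 for TCHP, beside a median of 0.875 over all tested genes. They were picked as the smallest distances, so they lie far below that median by choice. The members themselves lay between 0.0808 (SRSF5) and 0.791 (SRSF9) from their mean profile, with a median of 0.366. No member was as near to it as these genes, so the mean profile describes single members poorly. The mean profile of the members was -0.28 in APEX1-OE replicate 1, -0.14 and -0.15 in Ctrl replicates 1 and 2, 0.12 in Ctrl replicate 3, and 0.13 and 0.33 in APEX1-OE replicates 2 and 3, so APEX1-OE held both its lowest and its highest library.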

How the data were processed

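RNA-seq of 6 A549 libraries (3 APEX1-OE, 3 Ctrl) was used. The authors trimmed the reads (FASTX-Toolkit), ran tophat2 against GRCh38 and took uniquely mapped reads for the deposited raw counts per gene and for the deposited FPKM. The counting tool, its annotation and its use of strand were not given in the sources used here. Groups came from the sample titles.

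Counts were tested with edgeR 4.0.16 in R 4.3.3 (filterByExpr with a minimum count of 10 and a minimum total of 15, TMM, robust quasi-likelihood F-test, condition only, Benjamini-Hochberg over all 16971 tested genes at 0.05). FPKM values were tested with limma 3.58.1 on log2(FPKM + 1), and each member also by an exact permutation test; DESeq2 1.42.0 was an alternative. GC content, lengths and sequences came from GENCODE 44 and GRCh38, in which 31231 of 32192 gene identifiers (97.0%) were found without the version. Splicing events were not analysed here.

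The members and the 3 partner lists, written from textbook knowledge, were chosen with earlier results of these data known. The genes named were APEX1, the family, a fixed choice of list genes (SRPK1, SRPK2, CLK1 to CLK4, TNPO3, TRA2A, TRA2B, U2AF1, U2AF2, SNRNP70, UPF1, SMG1) with any other called list gene, SRSF pseudogenes, overlapping genes, and the 5 genes nearest in profile. PPP1CA, NXF1, SCAF1, SNRPA, SREK1, SMG5, SMG8, SMG9 and CDK11B fall outside this rule and were named after their values were seen. Counting depth was 28131955 to 41009197 per library. Within groups the closest pair, Ctrl replicates 1 and 2, had a chi-square per degree of freedom of 3.86, so no library was a copy of another of its group. The remaining pairs within groups lay between 26.9 and 213, so Ctrl replicates 1 and 2 were much more alike than any of these. Pairs across the groups were not compared.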

Additional observations from a re-analysis of the deposited data

How the results depend on the processing

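No SR gene was called in any of the 20 other settings, in which the lowest adjusted p of a member was 0.338, and no gene of the partner lists was called in any of them. The median log2 fold change of the members, 0.106, changed sign without APEX1-OE replicate 3 (-0.0407), with the library set as a term (-0.0181) and with the GC and length offset (-0.038). Leaving out APEX1-OE replicate 1 gave 0.229 and leaving out Ctrl replicate 1, 2 or 3 gave 0.0496, 0.0562 or 0.204. The median was 0.063 with upper quartile scaling and 0.0538 with both the offset and the library set. The number of genes called over all tested genes was 10 without a filter on low counts, 2 with the replicate number as a block, 4 with the library set as a term and 20 with both the library set and an offset for GC and length, and it lay between 0 and 1 with a library left out (0 without APEX1-OE replicate 2 or 3 or Ctrl replicate 1 or 2). The deviations of same-numbered replicates from their group means correlated at 0.607, -0.521 and 0.700 for numbers 1, 2 and 3. The libraries of number 1 and those of number 3 each lie in 1 library set, while those of number 2 lie in both. Whether same-numbered libraries were prepared as pairs cannot be read from these values. With the replicate block SRSF11 was at 0.465 (unadjusted p = 0.0401, adjusted p = 1.0 from edgeR), where 3.31% of all tested genes had an unadjusted p under 0.05. Without APEX1-OE replicate 1, SRSF10 was at 0.609 and SRSF11 at 0.729 (unadjusted p = 0.0456 and 0.0316, adjusted p = 0.507 each from edgeR), where 7.61% of all tested genes had an unadjusted p under 0.05.

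SRSF10 and SRSF11 kept their sign in every setting. SRSF4, at -0.0082, was at 0.00627 without a filter, 0.00366 with RLE size factors, 0.00374 in DESeq2, 0.00540 and 0.00503 in limma on FPKM with a pseudocount of 1 and 0.1 (0.00540 without a filter on low values) and 0.00383 with offset and library set. SRSF2 was at -0.0196 with upper quartile scaling. With the library set as a term SRSF1, SRSF3, SRSF5 and SRSF7 were at -0.109, -0.0413, -0.0328 and -0.0634. With the offset alone SRSF1, SRSF3, SRSF6 and SRSF7 were at -0.0697, -0.155, -0.0265 and -0.0495, and with offset and library set SRSF1 was at -0.0445 and SRSF9 at 0.0771. With a library left out, SRSF1 ranged from -0.0458 to 0.416, SRSF2 from -0.0432 to 0.0540, SRSF3 from -0.0817 to 0.174, SRSF4 from -0.0784 to 0.0488, SRSF5 from -0.0357 to 0.285, SRSF6 from 0.00138 to 0.244, SRSF7 from -0.0813 to 0.214, SRSF9 from -0.184 to -0.0259, SRSF10 from 0.108 (without APEX1-OE replicate 3) to 0.638 (without Ctrl replicate 3) and SRSF11 from 0.232 to 0.818 (without the same libraries). The cause was not tested. In the order of the FPKM levels, 2, 4 and 4 members changed rank in APEX1-OE replicates 1, 2 and 3 alone, 4, 6 and 2 in Ctrl replicates 1, 2 and 3 alone, and 6 with counts per kilobase of annotated exon. The settings with the library set or the offset were chosen after seeing the data.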
